A study of Mus musculus with 12 samples.

Results

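The oxidant-sensing arm of Nrf2 was followed through 9 genes of mouse kidney: Nfe2l2, which encodes the transcription factor Nrf2, its inhibitor gene Keap1, and 7 genes known as Nrf2 targets or as parts of the thioredoxin system, namely Nqo1, Txnrd1, Txn1, Srxn1, Akr1b8, Osgin1 and G6pdx. They were taken by gene symbol from a table of 19036 genes, where all 9 were found. The kidneys came from C57BL/6 mice in 3 groups of 4 libraries, each labelled a biological replicate. Vehicle mice were injected with saline. Cisplatin mice received the platinum drug cisplatin intraperitoneally at 25 mg/kg, which injures the renal tubule. Cisplatin+84-B10 mice, called the combination group here, received the same dose of cisplatin and the compound 84-B10 at 15 mg/kg, starting 48 h before cisplatin. The kidneys of all groups were taken at 72 h. The labels disagree on whether the cisplatin group also had the 84-B10 pretreatment, no library of 84-B10 without cisplatin was analysed here, and age and sex were not given in the sources used here. Whole kidney RNA was sequenced, so in every result fewer cells of a type and less RNA per cell cannot be told apart.

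In the resting cell the Keap1 protein holds Nrf2 for ubiquitination by a Cul3 ligase and the proteasome. Electrophiles and oxidants modify Keap1 cysteines, Nrf2 accumulates, pairs with a small Maf protein and binds antioxidant response elements at genes of detoxification, glutathione and thioredoxin metabolism and NADPH supply. Much of this control acts on the Nrf2 protein, which RNA sequencing does not measure. In the kidney the pathway is known as a defence of the tubule against toxic injury.

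The antioxidant response element has a short core, and promoters are shown here because most of the 9 genes moved together after cisplatin. RefSeq windows on GRCm38.p6, from 250 bases before to 50 bases after each annotated start, were found for all 9 genes, 11 windows in all because Txnrd1 has 3. The core TGACNNNGC, searched on both strands, was in 4 of the 11 windows, against 12.4% of 32841 windows of the same length over all genes. The 4 windows that hold it are those of Nfe2l2 (chr2:75704614-75704913, minus strand), Srxn1 (chr2:152105274-152105573, plus strand), 1 of the 3 Txnrd1 starts (chr10:82858956-82859255, plus strand) and G6pdx (chrX:74428831-74429130, minus strand). They are printed 5′ to 3′ on the strand of the gene, with capitals on every match to the looser form TGANNNNGC, which is shown as its reverse complement where the match lies on the other strand.
Nfe2l2: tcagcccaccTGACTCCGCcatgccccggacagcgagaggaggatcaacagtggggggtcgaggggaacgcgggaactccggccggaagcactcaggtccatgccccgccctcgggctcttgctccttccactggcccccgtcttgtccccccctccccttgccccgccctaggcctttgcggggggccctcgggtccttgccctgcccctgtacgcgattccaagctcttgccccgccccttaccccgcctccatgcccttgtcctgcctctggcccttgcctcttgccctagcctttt
Srxn1: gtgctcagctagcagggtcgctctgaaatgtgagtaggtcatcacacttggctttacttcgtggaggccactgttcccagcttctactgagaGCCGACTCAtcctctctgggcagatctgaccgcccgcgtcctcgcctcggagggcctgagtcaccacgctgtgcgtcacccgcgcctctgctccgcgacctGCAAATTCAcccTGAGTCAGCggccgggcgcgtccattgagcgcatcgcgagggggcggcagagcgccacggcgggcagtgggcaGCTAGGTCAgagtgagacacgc
Txnrd1: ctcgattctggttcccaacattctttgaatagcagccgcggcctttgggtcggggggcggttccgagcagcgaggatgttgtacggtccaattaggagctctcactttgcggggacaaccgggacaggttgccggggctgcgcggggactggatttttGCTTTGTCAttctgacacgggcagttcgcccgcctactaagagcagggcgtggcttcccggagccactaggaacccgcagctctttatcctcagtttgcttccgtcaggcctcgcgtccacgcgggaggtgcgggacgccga
G6pdx: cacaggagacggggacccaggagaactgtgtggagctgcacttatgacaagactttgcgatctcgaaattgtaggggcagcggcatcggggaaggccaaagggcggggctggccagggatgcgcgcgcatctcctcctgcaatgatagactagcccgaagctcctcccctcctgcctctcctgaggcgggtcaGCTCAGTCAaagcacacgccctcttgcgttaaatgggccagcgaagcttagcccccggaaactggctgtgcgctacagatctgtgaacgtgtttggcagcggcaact
In Nfe2l2 the core reads TGACTCCGC and begins 240 bases before the start. In the other 3 it lies on the opposite strand, as TGACCTAGC in Srxn1, TGACAAAGC in Txnrd1 and TGACTGAGC in G6pdx. The looser form was in 8 of the 11 windows, against 41.3% of all windows, and Srxn1 alone held 4 matches. Of these, TGAGTCAGC, which begins 45 bases before the Srxn1 start and is also found in the Osgin1 window, contains TGANTCA and so overlaps a binding motif of the AP-1 factors. Neither form was found in the windows of Txn1 and Nqo1. A match is a stretch of letters and not a measured binding site, and the windows leave out more distant elements.

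After cisplatin 7 of the 9 genes rose and 1 fell, and the ninth, Keap1, did not pass. The rises spanned 1.4-fold for Txn1 to 53.3-fold for Akr1b8 in mean FPKM, the deposited unit, which counts fragments scaled for transcript length and library depth. Passing means an adjusted p under 0.05 in limma, a linear model of log2(FPKM + 1) over 12428 genes with Benjamini-Hochberg adjustment. In this comparison 78.1% of all tested genes passed, 56.3% upward and 21.8% downward, so that a pass by itself was common. Vehicle and cisplatin libraries were fully separated for 8 of the 9, 7 higher and 1 lower, as for 71.6% of all tested genes, 52% higher and 19.6% lower. A pass with a log2 fold change of at least 1 was met by 12% of all tested genes and by 6 of the 9. The median log2 fold change was 1.58 over the 9 and 0.26 over all genes tested. Median-of-ratios scaling lowered the fold changes of all genes by a median of 0.27 and changed the split of calls from 6999 up and 2711 down to 4618 and 4602, and every rise named here for the 9 genes remained past the threshold under it.

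**Figure D1:**
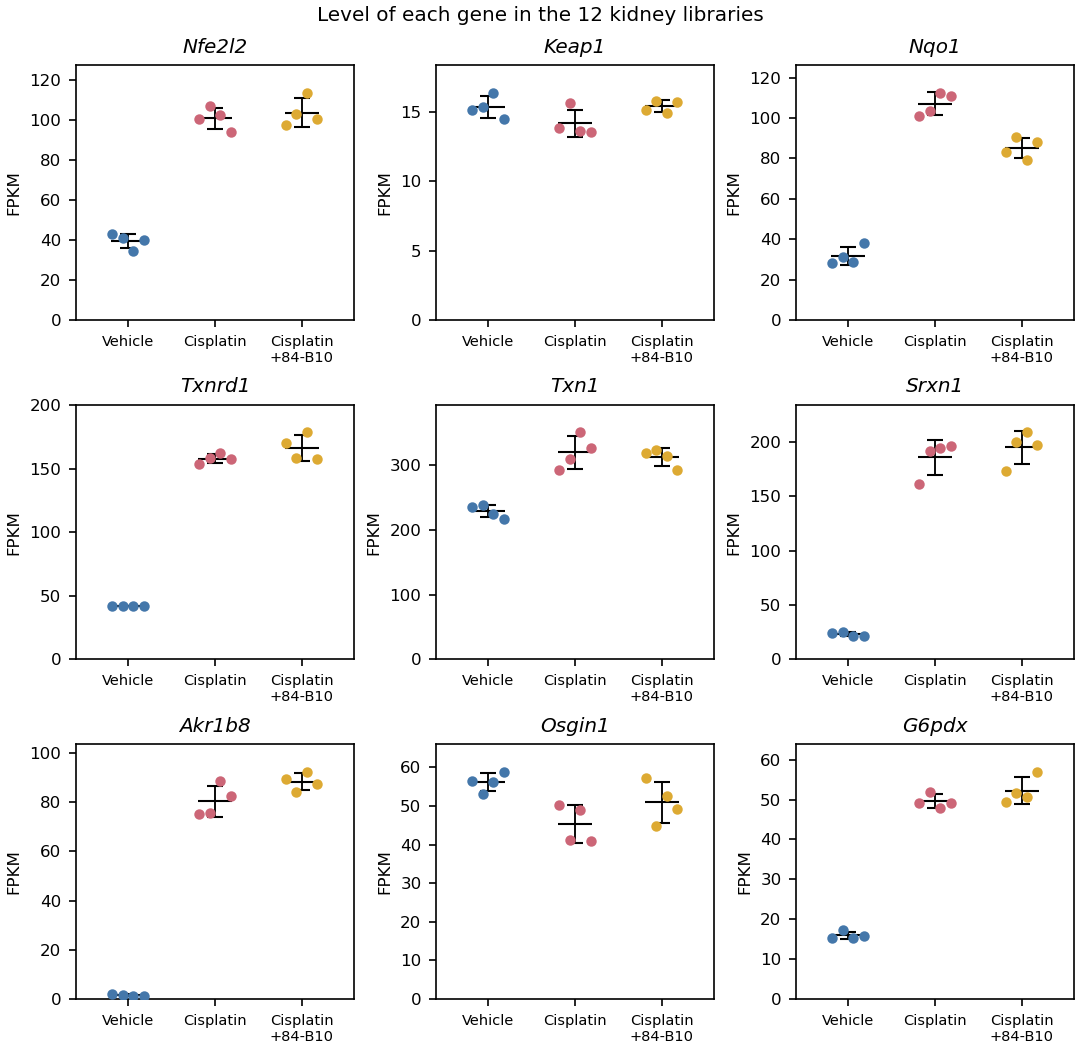
FPKM of the 9 genes (vertical axes, linear from 0) in 4 libraries each of vehicle, cisplatin and cisplatin plus 84-B10 kidneys; points are libraries and bars are mean ± SD. In 7 panels both cisplatin groups lie above vehicle, Keap1 stays between 13.56 and 16.39 FPKM, Osgin1 is lower after cisplatin, and Nqo1 in the combination group lies between vehicle and cisplatin.

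The sensor pair moved apart. Nfe2l2 (NCBI gene 18024) was measured at 42.7, 41.1, 34.6 and 39.7 FPKM in vehicle libraries 1 to 4, at 100.3, 107, 102 and 94.0 FPKM after cisplatin and at 97.4, 103, 114 and 100.1 FPKM in the combination group. Every library given cisplatin was above every vehicle library, and the cisplatin and combination libraries overlapped. The mean rose from 39.5 ± 3.50 to 101 ± 5.21 FPKM (SD, n = 4 per group), a log2 fold change of 1.33 (SE 0.07, limma adjusted p = 1.15e-09). Keap1 (NCBI gene 50868) was measured at 15.1, 15.3, 16.4 and 14.5 FPKM in vehicle libraries and at 13.9, 15.6, 13.6 and 13.6 FPKM after cisplatin. The combination libraries stood at 15.1, 15.8, 14.9 and 15.74 FPKM, and all 3 groups overlapped. Keap1 did not pass in limma with the deposited scale (-0.11, 95% interval -0.23 to 0.01, adjusted p = 0.091). With median-of-ratios scaling (-0.38, adjusted p = 1.51e-05), with edgeR on the estimated counts (-0.45, adjusted p = 2.25e-05), and without cisplatin library 2, the highest of its group (-0.15, adjusted p = 0.017), it passed as lower. The edgeR fit also lacked cisplatin library 2, as only cisplatin libraries 3 and 4, at 13.64 and 13.56 FPKM, had assigned counts. The Nfe2l2 to Keap1 ratio of FPKM values within a library does not depend on library scaling. It was 2.59 ± 0.323 in vehicle, 7.12 ± 0.303 in cisplatin and 6.73 ± 0.587 in combination libraries, with no overlap between vehicle (2.11 to 2.82) and the other 2 groups (6.36 to 7.6).

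The cytosolic thioredoxin system rose unevenly. Txn1, the small disulfide reductase thioredoxin (NCBI gene 22166), was the most abundant of the 9 in every group. It was measured at 236, 238, 225 and 218 FPKM in vehicle, at 293, 309, 352 and 328 FPKM in cisplatin and at 319.95, 324, 315 and 293 FPKM in combination libraries. Its rise was the smallest of the 7 (0.48, SE 0.06, limma adjusted p = 9.74e-06), without overlap between cisplatin and vehicle, and it was 0.19 (adjusted p = 0.0263) with median-of-ratios scaling. Txnrd1 (NCBI gene 50493) encodes the selenoprotein that reduces thioredoxin with NADPH. It was nearly identical among the vehicle libraries, at 41.9, 42.0, 41.7 and 42.4 FPKM, and stood at 153, 158, 163 and 158 FPKM after cisplatin and 171, 159, 179 and 158 FPKM in the combination group. The rise to 158 ± 3.74 FPKM was 3.76-fold (log2 fold change 1.89, SE 0.05, limma adjusted p = 9.76e-13). Srxn1 (NCBI gene 76650), the sulfiredoxin that restores over-oxidised peroxiredoxins, stood at 24.3, 25.0, 21.8 and 21.7 FPKM in vehicle libraries. After cisplatin it stood at 162, 191, 195 and 196 FPKM, and in the combination group at 174, 200.5, 209 and 198 FPKM, again with every vehicle library below all others. The rise was 8.01-fold (2.95, SE 0.08, limma adjusted p = 1.23e-12). Within libraries the Txnrd1 to Txn1 ratio of FPKM went from 0.183 ± 0.00852 to 0.495 ± 0.028, and the Srxn1 to Txn1 ratio from 0.101 ± 0.00363 to 0.581 ± 0.033 (vehicle and cisplatin, SD, n = 4). Neither ratio overlapped between those groups.

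The mitochondrial partners went the other way. Txn2, mitochondrial thioredoxin, fell from 176 ± 2.58 to 139 ± 9.25 FPKM (log2 fold change -0.34, limma adjusted p = 5.15e-05), and Txnrd2, its reductase, from 12.5 ± 0.724 to 8.27 ± 0.432 FPKM (-0.54, adjusted p = 3.17e-06). Txnrd3, a further thioredoxin reductase known from testis, rose from 6.02 ± 1.05 to 14.4 ± 1.29 FPKM (1.14, adjusted p = 2.01e-07). These 3 directions held under median-of-ratios scaling, quantile normalization and rescaling to TPM (values that sum to the same total in each library).

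Among the detoxifying enzymes, Akr1b8 had the largest fold change of the 9. Akr1b8 (NCBI gene 14187), an aldo-keto reductase of aldehydes, stood at 1.95, 1.61, 1.10 and 1.37 FPKM in vehicle libraries, at 75.0, 75.5, 88.4 and 82.3 FPKM after cisplatin and at 89.3, 84.0, 92.4 and 87.2 FPKM in the combination group. The gene was thus near the detection filter of 1 FPKM in vehicle kidneys and far above it in every library of the others, which overlapped each other. Its log2 fold change of 5.03 (SE 0.09, limma adjusted p = 4.31e-14) ranked 22 of 12428 genes. None of its 10 named estimated counts was a whole number, so reads may have been divided with other genes. Nor was any count of Akr1b10 or Akr1b7 whole, and how reads were assigned among these genes was not tested. The close paralogs of Akr1b8 did not rise. Akr1b10 fell from 25.8 ± 1.61 to 19.0 ± 1.82 FPKM (-0.43, limma adjusted p = 0.000266), Akr1b3, aldose reductase, from 43.4 ± 4.90 to 33.6 ± 2.48 FPKM (-0.36, adjusted p = 0.00121), and Akr1b7 from 1.67 ± 0.32 to 0.955 ± 0.43 FPKM (-0.47, adjusted p = 0.00821), with overlapping libraries.

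Nqo1 (NCBI gene 18104) encodes the quinone reductase that is often read as a marker of Nrf2 activity. It was measured at 27.99, 31.4, 28.8 and 37.9 FPKM in vehicle libraries, at 101, 103, 113 and 111 FPKM after cisplatin and at 83.2, 90.3, 79.4 and 88.1 FPKM in the combination group. The 3 groups did not overlap. The rise after cisplatin was 3.39-fold (1.74, SE 0.08, limma adjusted p = 4.94e-10). Its paralog Nqo2 fell from 12.8 ± 0.945 to 9.47 ± 0.425 FPKM (-0.39, limma adjusted p = 3.2e-05). Osgin1 (NCBI gene 71839), an oxidative stress-induced growth inhibitor gene and a known Nrf2 target, was the member that fell. It stood at 56.6, 53.0, 56.3 and 58.9 FPKM in vehicle and at 50.4, 41.1, 49.0 and 40.9 FPKM in cisplatin libraries, without overlap (-0.31, SE 0.08, limma adjusted p = 0.00395). The combination libraries, at 57.2, 44.8, 52.6 and 49.2 FPKM, overlapped both other groups. Its paralog Osgin2 rose from 1.55 ± 0.0705 to 3.22 ± 0.315 FPKM (0.73, limma adjusted p = 3.24e-07).

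G6pdx (NCBI gene 14381) encodes glucose-6-phosphate dehydrogenase, which opens the pentose phosphate pathway and supplies NADPH to the reductases above. It stood at 15.3, 17.3, 15.2 and 15.8 FPKM in vehicle, at 49.2, 51.9, 47.9 and 49.2 FPKM in cisplatin and at 49.5, 51.7, 50.7 and 57.0 FPKM in combination libraries. Every library given cisplatin was above every vehicle library, and the rise was 3.11-fold (1.58, SE 0.06, limma adjusted p = 2.67e-11). Its retrogene G6pd2 reached at most 0.04 FPKM in any library. Some G6pdx estimated counts were not whole, in 7 of 10 libraries with a named count column, so a few reads may have been shared.

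The order of levels among the 9 genes, per length in FPKM, changed with cisplatin. In vehicle kidneys Txn1 was followed by Osgin1, Txnrd1, Nfe2l2, Nqo1, Srxn1, G6pdx, Keap1 and Akr1b8, and the neighbours Txnrd1 and Nfe2l2, Nfe2l2 and Nqo1, and G6pdx and Keap1 overlapped between libraries. After cisplatin the order was Txn1, Srxn1, Txnrd1, Nqo1, Nfe2l2, Akr1b8, G6pdx, Osgin1 and Keap1, with overlap between Srxn1 and Txnrd1, Nqo1 and Nfe2l2, and G6pdx and Osgin1. In the combination group Nqo1 came after Akr1b8 in place of before Nfe2l2. There Akr1b8 and Nqo1 overlapped, as did Srxn1 and Txnrd1, and G6pdx and Osgin1.

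Between the combination and cisplatin groups no member passed in limma, where 2.21% of all tested genes did, 0.435% upward and 1.78% downward. At an unadjusted p under 0.05 there was 1 member, Nqo1, and the share of all tested genes under that rule was not counted. On the estimated counts of 10 libraries, edgeR and DESeq2 each called 1 member, also Nqo1. Over all genes edgeR called 38 up and 269 down of 14831, and DESeq2 102 up and 345 down of 14475. Of the cisplatin group the estimated counts held only libraries 3 and 4. Their Nqo1 values, 112.56 and 111.09 FPKM, were above those of libraries 1 and 2, 101.13 and 103.26 FPKM, which enlarges the difference in these fits. Mean Nqo1 was 107 ± 5.66 FPKM after cisplatin and 85.3 ± 4.93 FPKM in the combination group, a log2 difference of -0.32 (SE 0.08, 95% interval -0.50 to -0.15, limma adjusted p = 0.0678). All 4 combination libraries were below all 4 cisplatin libraries, a separation seen downward in 4.23% of all tested genes, upward in 4.01% and either way in 8.24%. The difference passed in 7 of 11 other settings, among them rescaling to TPM (-0.35, adjusted p = 0.0417), edgeR (-0.41, adjusted p = 0.0423) and DESeq2 (-0.41, adjusted p = 0.00376). It also passed without vehicle library 4, the highest vehicle library (adjusted p = 0.014), and the range over all settings was 0.00376 to 0.191. The Nqo1 to Txnrd1 ratio of FPKM, which is free of library scaling, was 0.677 ± 0.0249 in cisplatin and 0.515 ± 0.0599 in combination libraries, with no overlap (0.653 to 0.704 and 0.444 to 0.57). In vehicle libraries this ratio was 0.75 ± 0.102, from 0.669 to 0.895.

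The other 8 members differed little between these groups, and their intervals limit the size of a difference. The log2 difference was 0.04 for Nfe2l2 (95% interval -0.11 to 0.19), 0.11 for Keap1 (-0.01 to 0.23) and 0.07 for Txnrd1 (-0.03 to 0.18). It was -0.03 for Txn1 (-0.17 to 0.10) and 0.07 for Srxn1 (-0.10 to 0.24). For Akr1b8 it was 0.14 (-0.06 to 0.33), for Osgin1 0.17 (-0.01 to 0.35) and for G6pdx 0.07 (-0.05 to 0.19). The libraries of the 2 groups overlapped for each of these 8 genes, and limma gave adjusted p values from 0.365 for Keap1 to 0.858 for Txn1.

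**Figure D2:**
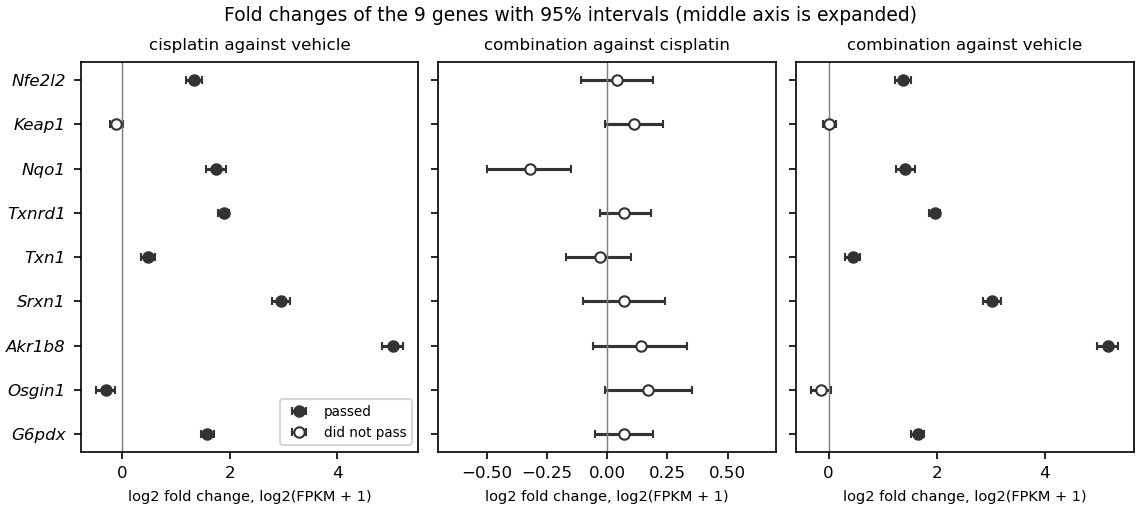
Log2 fold changes of the 9 genes on the log2(FPKM + 1) scale (horizontal axes) with 95% intervals from limma, in 3 panels for the 3 comparisons; filled points passed at an adjusted p under 0.05, and the middle axis is expanded. In the middle panel only the Nqo1 interval, -0.50 to -0.15, lies wholly on one side of 0, and no point is filled.

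Against vehicle, 7 members were higher in the combination group and none passed as lower, where 79.2% of all tested genes passed, 56.6% upward and 22.6% downward. The same 7 did not overlap with vehicle, as was so for 74.8% of all tested genes, 53.9% higher and 20.9% lower. This comparison shares the vehicle libraries with the cisplatin comparison and is no independent repeat of it. The log2 fold changes were 5.16 for Akr1b8, 3.02 for Srxn1, 1.96 for Txnrd1, 1.65 for G6pdx, 1.42 for Nqo1, 1.37 for Nfe2l2 and 0.45 for Txn1, with limma adjusted p values of at most 1.75e-05. Neither Osgin1 (-0.14, adjusted p = 0.129) nor Keap1 (0.01, adjusted p = 0.916) passed. Under median-of-ratios scaling Osgin1 (-0.44, adjusted p = 0.000531) and Keap1 (-0.28, adjusted p = 0.000252) passed as lower, and Txn1 no longer did (0.15, adjusted p = 0.0709).

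**Figure D3:**
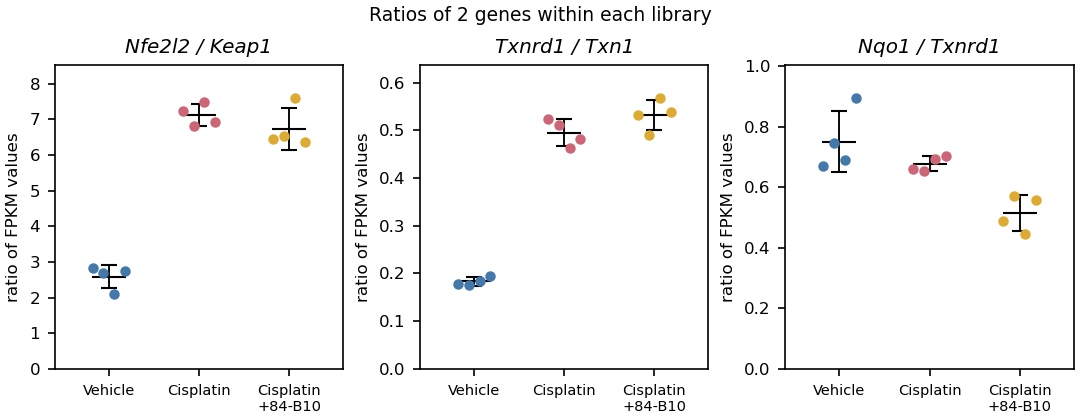
Ratios of FPKM values of 2 genes within each library (vertical axes, linear from 0) for Nfe2l2 to Keap1, Txnrd1 to Txn1 and Nqo1 to Txnrd1; points are the 4 libraries of each group and bars are mean ± SD. The first 2 ratios are higher in both cisplatin groups than in vehicle, and the third is lowest in the combination group, at 0.444 to 0.57.

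Other genes of the pathway are given from 4 lists chosen with earlier results of these data known. Of 18 partners and regulators of Nrf2, 15 were tested, and after cisplatin 11 rose and 3 fell, beside 56.3% and 21.8% of all tested genes. Their median log2 fold change was 0.35 beside 0.26 for all genes. With median-of-ratios scaling 6 rose and 4 fell, beside 4618 and 4602 of the 12428 genes. The small Maf genes Maff, from 1.35 to 22.7 FPKM (3.34, limma adjusted p = 1.45e-11), and Mafk (1.46, adjusted p = 4.03e-10), which encode dimer partners of Nrf2, led the rises. Sqstm1, the autophagy adaptor p62 that binds Keap1 (0.62), and Bach1, a repressor that competes at the response element (0.57), also rose. The 3 that fell were the Keap1 ligase scaffold Cul3 (-0.22, limma adjusted p = 0.00131), and the substrate adaptors Btrc (-0.27, adjusted p = 0.000505) and Fbxw11 (-0.31, adjusted p = 0.00148) of another Nrf2 ligase. Rbx1, the RING subunit of both ligases, rose from 35.4 to 46.3 FPKM (0.37, limma adjusted p = 0.00017), which with median-of-ratios scaling was 0.09 (adjusted p = 0.291). Cand1, a cullin exchange factor, did not pass (0.06, adjusted p = 0.476) and was lower with median-of-ratios scaling (-0.21, adjusted p = 0.0121). Nfe2l1, a paralog of Nfe2l2 that is tied to proteasome genes, rose from 38.5 to 49.5 FPKM (0.35, adjusted p = 7.79e-06), which with median-of-ratios scaling was 0.07 (adjusted p = 0.199).

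Of 30 other Nrf2 targets 26 were tested, of which 20 rose and 1 fell after cisplatin (median 0.76, beside 0.26 for all genes), or 17 and 5 with median-of-ratios scaling. The shares over all tested genes were 56.3% up and 21.8% down, or 4618 and 4602 of 12428 genes with that scaling. The largest rises were those of the glutathione transferase Gsta1, from 0.883 ± 0.926 to 69.3 ± 8.96 FPKM (5.36, limma adjusted p = 8.7e-10), the epoxide hydrolase Ephx1, from 24.8 ± 1.87 to 303 ± 26.3 FPKM (3.56, adjusted p = 1.88e-13), the carbonyl reductase Cbr3 (3.06, adjusted p = 2.55e-11) and the haem oxygenase Hmox1 (2.36, adjusted p = 8.94e-10). Gsta1 has close paralogs among which reads can be divided. Prdx1, a peroxiredoxin that thioredoxin reduces, was the 1 that fell (-0.20, SE 0.06, adjusted p = 0.0066). Ftl1, the ferritin light chain, did not pass (-0.16, adjusted p = 0.0915), and passed as lower with median-of-ratios scaling (-0.46, adjusted p = 0.000749).

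Between the combination and cisplatin groups 1 of these 26 targets passed, or 1 upward and 2 downward with quantile normalization. Of all 12428 tested genes 2.21% passed, 0.435% upward and 1.78% downward, and quantile normalization called 76 up and 249 down. Gclc, the catalytic subunit of the rate-limiting ligase of glutathione synthesis, stood at 276, 205, 274 and 230.5 FPKM after cisplatin and at 162, 127, 139.97 and 168 FPKM in the combination group, against 66.7, 74.4, 109 and 69.0 FPKM in vehicle libraries. As with Nqo1, the combination libraries lay between the other groups without overlap. The log2 difference from cisplatin was -0.72 (SE 0.15, 95% interval -1.03 to -0.40, limma adjusted p = 0.0229). The call was lost when any of cisplatin libraries 1, 3 and 4 or combination libraries 2 and 3 was left out, with adjusted p from 0.0509 to 0.0836. Gclm, the modifier subunit of the same ligase, was at 125 ± 15.5 FPKM after cisplatin and 108 ± 13.6 FPKM in the combination group and did not pass.

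Of 22 other thioredoxin and glutaredoxin genes, 13 rose and 6 fell after cisplatin with a median of 0.24, or 7 and 7 with median-of-ratios scaling. The 13 and 6 lie near the 56.3% up and 21.8% down of all tested genes, and the median is close to their 0.26. With median-of-ratios scaling 4618 of all 12428 genes rose and 4602 fell. Glrx3, a cytosolic monothiol glutaredoxin (1.17, limma adjusted p = 1.61e-10), and Txnrd3 rose most. The methionine sulfoxide reductases Msra, from 264 ± 12.3 to 136 ± 7.23 FPKM (-0.96, adjusted p = 4.65e-09), and Msrb2 (-0.89, adjusted p = 1.98e-07) fell most. Txndc12, a thioredoxin-like protein of the endoplasmic reticulum, did not pass (0.07, adjusted p = 0.306) and was lower with median-of-ratios scaling (-0.21, adjusted p = 0.0104).

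NADPH supply moved in both directions. Of 15 tested genes besides G6pdx, 8 rose and 6 fell, with a median of 0.18, or 5 and 6 with median-of-ratios scaling. The 8 rises lie near the 56.3% of all tested genes, whose median was 0.26, and 21.8% of all tested genes fell. Under median-of-ratios scaling the counts over all 12428 genes after cisplatin were 4618 up and 4602 down. The list mixes enzymes that form NADPH with other pentose phosphate enzymes, such as Taldo1, and with NAD kinases. Among the former, Pgd and H6pd (1.05) rose, and Me1, Me3 (-0.58), Idh1 (-0.29), Idh2 and Nnt fell. Pgd, the next dehydrogenase of the pentose phosphate pathway after G6pdx, rose from 53.3 ± 1.24 to 129.5 ± 2.28 FPKM (1.27, limma adjusted p = 1.34e-11), and Taldo1 of its non-oxidative branch from 167 ± 11.7 to 327 ± 39.4 FPKM (0.96, adjusted p = 4.99e-07). The mitochondrial transhydrogenase Nnt, from 42.2 ± 2.43 to 14.3 ± 2.95 FPKM (-1.51, adjusted p = 1.11e-07), the cytosolic malic enzyme Me1, from 265 ± 9.40 to 94.6 ± 8.85 FPKM (-1.48, adjusted p = 4.45e-10), and mitochondrial isocitrate dehydrogenase Idh2, from 274 ± 18.1 to 107 ± 8.56 FPKM (-1.34, adjusted p = 1.3e-09), fell. Me1 is itself a known Nrf2 target. Me2 did not pass (0.17, adjusted p = 0.0911) and had the opposite sign with quantile normalization (-0.20, adjusted p = 0.0569). In the combination group against vehicle, 11 partners rose and 3 fell, 20 other targets rose and 2 fell, 13 thioredoxin genes rose and 6 fell, and 8 NADPH genes rose and 6 fell. Under median-of-ratios scaling these counts were 6 and 4, 17 and 5, 6 and 7, and 5 and 7. Over all tested genes the shares against vehicle were 56.6% up and 22.6% down, or 4670 and 4645 of 12428 genes with that scaling. Between the combination and cisplatin groups none of the tested partners, thioredoxin genes or NADPH genes passed in limma. Only 2.21% of all tested genes passed in this comparison. The most abundant of each list that did not pass there were Sqstm1 (0.11, limma adjusted p = 0.491), the ferritin heavy chain Fth1 (-0.03, adjusted p = 0.921; 0.86, adjusted p = 0.0418, with quantile normalization), the methionine sulfoxide reductase Msrb1 (0.00, adjusted p = 0.998) and Taldo1 (0.07, adjusted p = 0.789).

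**Figure D4:**
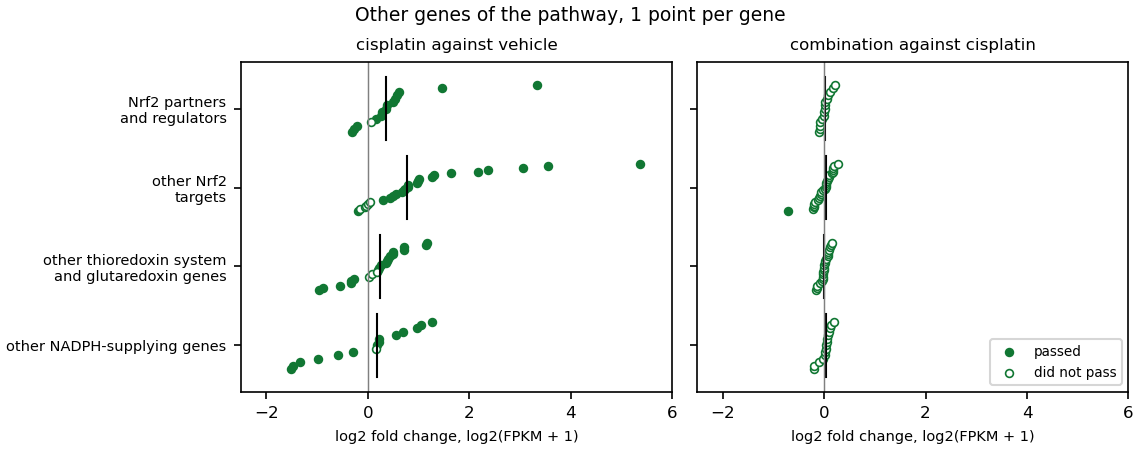
Log2 fold changes on the log2(FPKM + 1) scale (horizontal axes) of the tested genes of 4 lists (vertical axis), 1 point per gene, filled where the gene passed, with a black line at the list median; left, cisplatin against vehicle, and right, combination against cisplatin. After cisplatin the list medians lie at 0.35, 0.76, 0.24 and 0.18, and in the right panel the single filled point is Gclc at -0.72.

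The genes closest in pattern to a member were named by the root mean square difference of centred log2(FPKM + 1) values over the 12 libraries, as a description. Closest to Nfe2l2 was Pkp2 (0.0679), at 12.2 ± 0.789, 33.0 ± 2.53 and 33.4 ± 1.32 FPKM in vehicle, cisplatin and combination libraries, with Tuft1 (0.0705) next. Closest to Txnrd1 was Rdh11 (0.0605), followed by Rcn1 (0.0728), to G6pdx Zbtb42 (0.0581) and Micall1 (0.0688), and to Akr1b8 Gprc5a (0.162) and Phlda3 (0.20). Nqo1 was less closely matched, with Stap2 (0.121, at 3.80 ± 0.683, 14.5 ± 2.55 and 12.4 ± 0.90 FPKM) ahead of Cdhr2 (0.152). Both had a lower mean in the combination than in the cisplatin group, which their selection over all 12 libraries favours. For Keap1 the closest were Psmd3 (0.0517) and Itgb5 (0.0532), for Txn1 Cdk11b (0.0408) and Eif5b (0.0409), and for Osgin1 Zhx2 (0.0708) and Wdr18 (0.0844). Among the 9 themselves the closest pair was G6pdx and Nfe2l2 (0.161).

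Markers of some cell types moved with the same contrast. The libraries held kidney transcripts, with 10 proximal tubule markers summing to 6718 to 6935 FPKM in vehicle libraries. That sum was 987 to 1897 FPKM after cisplatin, and all 10 fell. Macrophage markers summed to 32.3 to 38.5 and to 127 to 169 FPKM, with 5 of 6 tested genes higher, and neutrophil markers to 0.95 to 6.92 and to 28.5 to 36 FPKM, also with 5 of 6 higher. Csf1r and Ly6g did not pass, and Adgre1, Mrc1, Mpo and Elane were too low to be tested. With median-of-ratios scaling 5 rose and 1 fell in both lists. The shares over all tested genes were 56.3% up and 21.8% down, or 4618 and 4602 of 12428 genes with that scaling. Endothelium sums, 56.8 to 76.6 FPKM in vehicle and 51.1 to 71.4 FPKM in cisplatin libraries, overlapped. Podocyte sums, 64.3 to 80.3 and 41.5 to 68.4 FPKM, did so too. The low lymphocyte sums went from 3.76 to 5.78 FPKM in vehicle to 1.41 to 3.2 FPKM in cisplatin libraries. In the combination group the proximal tubule, macrophage and neutrophil sums were 1058 to 2112, 155 to 175 and 22.5 to 47.9 FPKM, overlapping cisplatin. No marker of these 3 cell types was at 0 in every library. Between combination and cisplatin some tubule markers differed, as did Gclc. In this comparison 0.435% of all tested genes rose and 1.78% fell. In limma, 2 of 10 proximal tubule markers, Slc7a13 (-1.42, adjusted p = 0.0383) and Aqp1 (-0.82, adjusted p = 0.0426), and 2 of 7 of the loop of Henle and distal tubule, Slc12a1 (-2.40, adjusted p = 0.000906) and Umod (-1.40, adjusted p = 0.00476), fell. The loop and distal sum was 279 to 534 FPKM after cisplatin and 206 to 320.1 FPKM in the combination group. Of 6 collecting duct markers Foxi1 (0.44, adjusted p = 0.00175) and Scnn1g (0.25, adjusted p = 0.048) rose, the latter not with median-of-ratios scaling (adjusted p = 0.0577), and their sum was 293 to 388 and 373 to 588 FPKM. The part of these markers in the values of the 9 genes and of Gclc was not tested. Estimated counts summed to 15.76 to 16.52 M (M, mega) in vehicle, 17.47 to 18.17 M in combination and 17.74 and 18.15 M in cisplatin libraries 3 and 4, and each of the 9 genes except Akr1b8 had at least 551.9 counts in each of these 10 libraries.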

How the data were processed

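RNA sequencing measured whole-kidney RNA of 12 mice. Per the submitters' processing notes the tools included HISAT2 2.0.4, RSEM 1.2.12 and Bowtie2 2.2.5, whose roles are not stated; the sources used here do not give the genome build, annotation or strandedness. The authors deposited FPKM of all 12 libraries, in hundredths, and estimated counts, of which 10 columns name a library. The short group name HD of the count columns was read as the combination group because the authors' mean FPKM under that name equals the mean of the FPKM columns headed Cisplatin+84-B10. A block of 14 columns with displaced or missing headings was not used.

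The 12428 genes that reached 1 FPKM in 4 or more libraries were tested as log2(FPKM + 1) with limma 3.58.1 in R 4.3.3, two-sided, with 3 group means, 9 residual degrees of freedom and a mean trend. FPKM were used because only 10 libraries had assigned counts. Fold changes on this scale understate changes of low genes. Intervals are limma's 95% intervals. edgeR 4.0.16 (14831 genes) and DESeq2 1.42.0 (14475 genes) were run on the deposited estimated counts, rounded. The further alternatives changed the pseudocount to 0.1, dropped the filter or raised it to a mean of 5 FPKM, rescaled the values (median-of-ratios, quantile, TPM), blocked by replicate number, weighted arrays, fitted the 2 compared groups alone, or left out 1 library. The limma fit and the edgeR fit were checked on simulated data with known changes, and the other settings were not.

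No 2 FPKM columns were identical, and counts of libraries of the same group differed by more than sampling noise (chi-square per degree of freedom at least 4.34); p-values measure the spread between the deposited libraries. The members and lists were chosen with earlier results of these data known. The text names, per list, the 4 passing genes with the largest change after cisplatin and the most abundant gene that did not pass in a comparison, the paralogs of the members, and the genes of closest pattern, which for Srxn1 are not reported here. Prdx1, Cul3, Rbx1, Btrc, Fbxw11, Gclm, Taldo1, H6pd, Me2, Me3, Idh1, Ftl1, Cand1, Txndc12, the cell markers and the within-library ratios were singled out after their values were seen where that rule does not name them.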

Additional observations from a re-analysis of the deposited data

Results flagged for a closer look

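In 2 of 27 groups of 4 libraries, 1 library stood far from the other 3, and chance flags about 1 group in 20. Srxn1 was at 161.84 FPKM in cisplatin library 1, below the other 3 cisplatin libraries at 191.38 to 196.17 FPKM. Keap1 was at 15.64 FPKM in cisplatin library 2, above the other 3 at 13.56 to 13.86 FPKM.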

How the results depend on the processing

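Over 11 other settings and 12 fits that each left out a library, the 7 rises after cisplatin were all past the threshold. In edgeR and DESeq2 the cisplatin group held only libraries 3 and 4. The number of members called lower after cisplatin was 1 in the reported fit and 2 with median-of-ratios scaling, quantile normalization, array weights, edgeR and DESeq2, through Keap1, and 1 to 2 when a library was left out. Of all 12428 genes 2711 fell in the reported fit, 4602 with median-of-ratios scaling and 4783 with quantile normalization. With edgeR 4754 of 14831 genes fell, and with DESeq2 4649 of 14475. Between combination and cisplatin 0 members were called lower, and 1, Nqo1, with quantile normalization, TPM, the replicate block, array weights, only the 2 groups compared, edgeR and DESeq2, and 0 to 1 without a library. All genes called there were 275, against 417 with array weights, 176 with only the 2 groups compared, 447 with DESeq2, and 152 to 298 without a library, the lowest counts being 152, 158 and 178 without combination library 3, combination library 2 and cisplatin library 4. Between combination and vehicle 0 members were called lower, and 2, Keap1 and Osgin1, with median-of-ratios, quantile normalization, edgeR and DESeq2, and 0 to 1 without a library. Over all genes of this comparison 2810 were lower in the reported fit. That number was 4645 with median-of-ratios, 4778 with quantile normalization, 5241 with edgeR and 5108 with DESeq2. The Keap1 difference there, 0.01, was -0.28 with median-of-ratios, -0.27 with quantile normalization, -0.29 with edgeR and -0.30 with DESeq2, and -0.02 to 0.04 without a library. Between combination and cisplatin, Srxn1 (0.07) was -0.02 with edgeR and with DESeq2, Nfe2l2 (0.04) was -0.01 without combination library 3, and Txn1 (-0.03) was 0.01 without cisplatin library 3 and 0.00 without combination library 4, with a range of -0.07 to 0.01. The cause was not tested.

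The replicate numbers are not said to mark a shared litter or day, and for that reason the reported fit did not take them as pairs. Deviations of same-numbered cisplatin and combination libraries correlated at 0.561, 0.249, 0.373 and -0.238. Cisplatin libraries 1, 2 and 3 each correlated best with the combination library of their own number, and library 4 did not. Same-numbered vehicle and cisplatin libraries correlated at -0.0765 to 0.0791. Whether the numbers mark pairs thus stays unknown. With the replicate block in limma Nqo1 passed between the cisplatin and combination groups (-0.32, adjusted p = 0.0392). Depth limits Akr1b8 in vehicle kidneys most, where the lowest estimated count of the 9 genes, 22.56, was found.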
